A study of Mus musculus with 12 samples.

Results

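The genes described here are 7 Wnt ligands (Wnt5a, Wnt3a, Wnt4, Wnt7a, Wnt7b, Wnt10a and Wnt10b) and 3 receptors of non-canonical Wnt signalling (Ror1, Ror2 and Ryk). They were picked by symbol and make up 10 of the 23420 genes in the count table of basal cells from mouse palate. Their difference between the sorted fractions was known when they were picked. Their values in that contrast are therefore a description. In these cells Wnt5a was lower in the label-retaining fraction of every mouse, at 0.492 times the level in the other fraction. Wnt7b and Ryk were also lower in the label-retaining fraction of every mouse, but neither was called in a test over all genes. The ligands with the highest mean levels, Wnt4 and Wnt10a, and the receptors Ror1 and Ror2 differed by less than the spread between mice.

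The study followed a green histone label in the epithelium of the hard palate. All 12 libraries came from FVB mice of the genotype K5-tTA (+/-); tetO-H2B-GFP (+/-), in which the keratin 5 promoter, active in basal keratinocytes, drives a transactivator that switches on histone H2B joined to GFP. Doxycycline stops new label, and dividing cells dilute what they hold. After a 14-day chase, live cells positive for CD49f, the basal surface integrin encoded by Itga6, were sorted by their remaining GFP. The GFP-HI group is 6 libraries of cells that kept the label, described by the submitters as infrequently dividing. The GFP-LO group is 6 libraries of cells from the same 6 mice that had lost label, described as frequently dividing. Mice B1M, B3M, B4M, B5M and B7M were 49 days old and B7F was 71 days old, and each library held RNA of 200 to 1000 pooled cells. No mouse without the transgenes or without doxycycline was analysed here.

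Wnt ligands carry a lipid, added in the endoplasmic reticulum, that they need for release by the carrier Wls and for binding to Frizzled receptors. In the canonical branch, Frizzled and LRP5 or LRP6 together stabilise β-catenin, which with TCF and LEF factors switches on targets such as Axin2. In the non-canonical branches, ligands of which Wnt5a is the best known act through Frizzled with ROR1, ROR2 or RYK on cell polarity, the cytoskeleton and calcium. Basal keratinocytes of skin and oral mucosa are known to make several Wnts themselves, and canonical signalling is known to help keep them dividing.

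The 7 ligands share a short stretch of coding sequence around the serine that carries the lipid. It is shown because reads are assigned to members of a gene family by such bases. Each line has 51 bases of the coding strand, 5′ to 3′, with the serine codon in capitals. All of these windows lie in the last coding exon of their GENCODE vM21 transcripts on GRCm38 (mm10).
Wnt5a: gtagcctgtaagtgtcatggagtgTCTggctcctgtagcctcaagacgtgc
Wnt3a: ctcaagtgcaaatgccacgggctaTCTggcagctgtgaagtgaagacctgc
Wnt4: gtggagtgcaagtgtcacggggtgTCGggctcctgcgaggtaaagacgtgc
Wnt7a: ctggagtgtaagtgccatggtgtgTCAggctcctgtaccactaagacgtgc
Wnt7b: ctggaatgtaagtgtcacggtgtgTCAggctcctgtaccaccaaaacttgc
Wnt10a: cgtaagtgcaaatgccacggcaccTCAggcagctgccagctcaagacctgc
Wnt10b: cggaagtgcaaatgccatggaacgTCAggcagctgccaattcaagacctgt
The windows lie at chr14:28522503-28522553 on the plus strand in Wnt5a, chr11:59250038-59250088 on the minus strand in Wnt3a and chr4:137296333-137296383 on the plus strand in Wnt4. They lie at chr6:91366257-91366307 in Wnt7a and chr15:85537797-85537847 in Wnt7b, both on the minus strand. Wnt10a has it at chr1:74803144-74803194 on the plus strand and Wnt10b at chr15:98772863-98772913 on the minus strand. The serine is residue 244 of 380 in Wnt5a, 209 of 352 in Wnt3a, 212 of 351 in Wnt4, 206 of 349 in Wnt7a, 213 of 356 in Wnt7b, 268 of 417 in Wnt10a and 253 of 389 in Wnt10b.

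Of the 51 positions, 24 were identical in all 7 genes, and 3 different codons encoded the serine. The closest pair was Wnt7a with Wnt7b, which differed at 6 bases and shared an identical run of at most 23. Wnt10a and Wnt10b differed at 7 bases. Wnt5a was nearest to Wnt7a, with 11 differing bases, and farthest from Wnt10a, with 22. Over whole transcripts, no run of 50 bases was shared between members. Wnt5a shared 4 of its 6978 runs of that length with other genes (0.0573%), Wnt4 4.33% and Wnt7b 4.12%, and the other 7 members shared none. The Wnt7b runs were shared with 1 other gene, which is not identified here. In the deposited table AU022754, a gene on the opposite strand, overlaps 38 of the 4415 exonic bases of Wnt7b. That overlap is shorter than a run of 50 bases. Whether reads were counted by strand is not given in the sources used here, so reads from that overlap cannot be told apart.

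In the deposited table Wnt5a lies at chr14:28505473-28525515 on the plus strand in 6 exon blocks, Wnt4 at chr4:137277635-137299501 (plus, 5 blocks) and Wnt10a at chr1:74792019-74804175 (plus, 4 blocks). Wnt3a lies at chr11:59248042-59290751 and Wnt7a at chr6:91363983-91411369, both on the minus strand in 4 blocks. Wnt7b, at chr15:85535437-85581821 in 6 blocks, and Wnt10b, at chr15:98771752-98778150 in 5 blocks, share a chromosome and the minus strand. The receptor genes are Ror1 at chr4:100095791-100442545 (plus, 9 blocks), Ror2 at chr13:53109317-53286109 (minus, 9 blocks) and Ryk at chr9:102834920-102908307 (plus, 15 blocks). Intervals with their build mm10 are those of the table, and counts are of reads over exons.

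Library totals were 6678444 to 10547665 counts. Between 12312 and 19023 genes were detected in GFP-HI libraries and between 13101 and 17376 in GFP-LO libraries, with the fewest in 2 GFP-HI libraries, those of B1M (12312) and B3M (12810). The results on Wnt3a, Wnt7a and Ror1 moved with these 2 mice and are also given without them. Basal keratinocyte markers (Krt5, Krt14, Trp63, Itga6 and 4 others) summed to 15371 to 24105 CPM (a gene's counts relative to the size of its library, as scaled by trimmed mean of M-values) in GFP-HI and 18277 to 25092 CPM in GFP-LO, so the defining genes of the labelled cell type were abundant in both fractions. A gene-wide edgeR test with mouse as a block covered 11719 genes. With a Benjamini-Hochberg adjusted p under 0.05 it called 55 of them higher in GFP-HI (0.469%) and 7 lower (0.0597%).

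Of the 10 genes, 9 passed the filter on low counts and were tested, namely 6 of 7 ligands and all 3 receptors, and Wnt10b did not pass. Wnt5a was called lower in GFP-HI, 1 of 9 against the 0.0597% of all tested genes, and no member was called higher. Since the choice of members used this contrast, nothing is read from that share. The fitted log2 fold change, GFP-HI over GFP-LO, was negative for 8 members and positive for Ror1. Of all tested genes it was negative for 6218 and positive for 5501. Its median was -0.31 over the 9 and -0.02 over all tested genes. In bulk RNA, fewer cells of one kind and less RNA per cell cannot be told apart, for these genes as for all below.

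Wnt5a is the ligand best known for non-canonical signalling. In GFP-HI it had 13.1 CPM for B1M, 16.0 for B3M, 11.4 for B4M, 15.4 for B5M, 11.1 for B7F and 21.3 for B7M. In GFP-LO it had 22.9 CPM for B1M, 38.5 for B3M, 30.3 for B4M, 27.7 for B5M, 20.9 for B7F and 40.3 for B7M. The fractions overlapped at 1 point only: B7M, the highest mouse in GFP-HI, was just above B7F, the lowest in GFP-LO. B7M was the highest mouse in both fractions and B7F the lowest in both, so the order of mice was partly kept. The counts behind these values were 81 to 213 in GFP-HI and 178 to 448 in GFP-LO.

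Wnt5a averaged 14.7 ± 3.79 CPM in GFP-HI cells and 30.1 ± 7.96 CPM in GFP-LO cells (SD, n = 6 each). The difference of log2 CPM within a mouse ran from -1.39 in B4M to -0.79 in B1M, with a mean of -1.01 ± 0.246 (SD, n = 6). It was below 0 in 6 of 6 mice. The fitted log2 fold change was -1.02 ± 0.16 (SE), a fold of 0.492, with an adjusted p of 0.0067 in edgeR's quasi-likelihood test, a result known when the genes were picked. It lay at the 1.35 percentile of fold changes over all tested genes, of which the middle 90% ran from -0.63 to 0.50. Without B4M, the mouse with the largest difference, the fold change was -0.95 and the adjusted p in the same test 0.051.

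**Figure D1:**
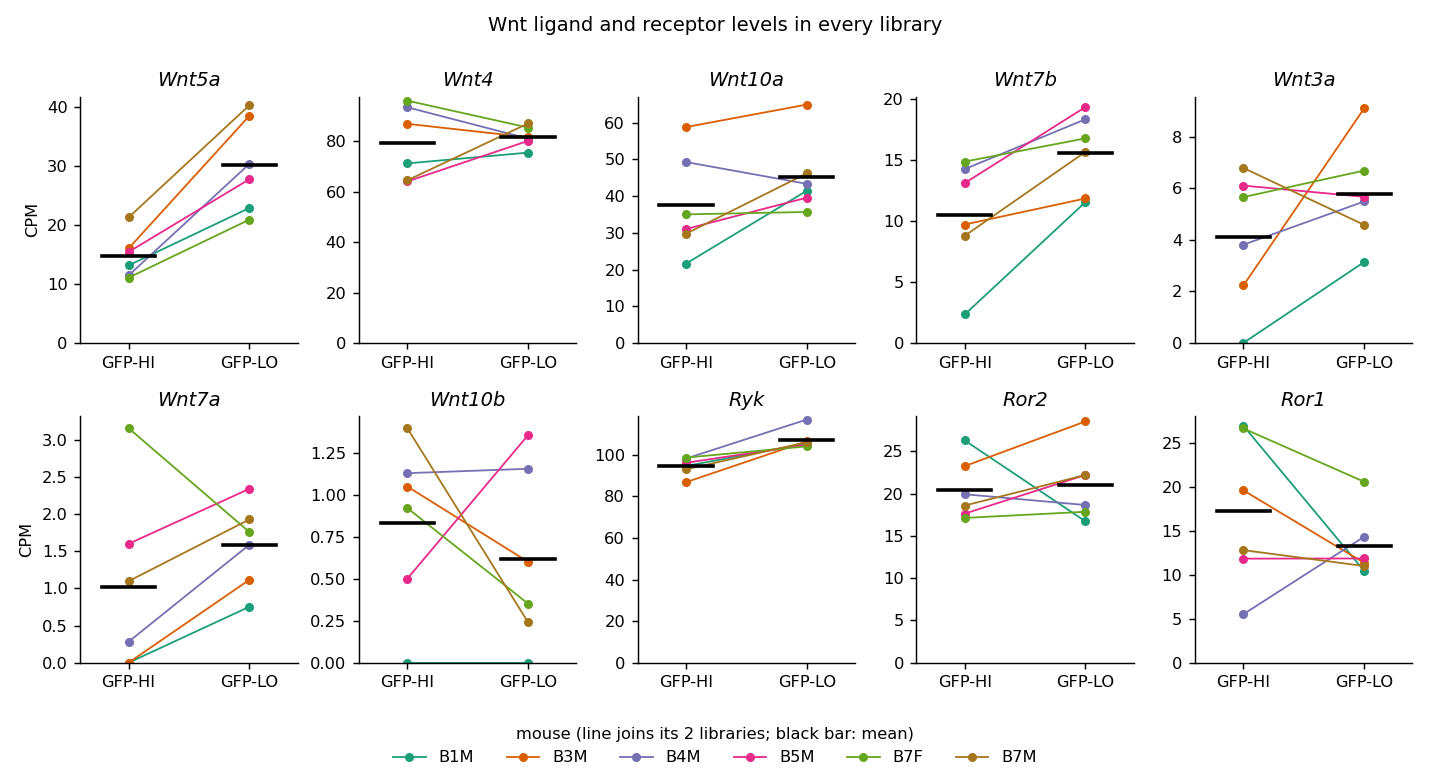
Level of each of the 10 genes in CPM (vertical axis, from 0, scaled per gene) in the GFP-HI and GFP-LO library of each mouse, with a line joining the 2 libraries of a mouse and a black bar at the mean of 6. Every Wnt5a line is higher in GFP-LO, from 11.1 to 21.3 CPM in GFP-HI and from 20.9 to 40.3 CPM in GFP-LO, while lines of Wnt4 and Ror2 run in both directions.

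Wnt4, a ligand that acts in canonical or non-canonical fashion depending on the cell, was at 64.1, 79.1 and 96.1 CPM (lowest, median and highest) in GFP-HI cells and 75.5, 81.3 and 87.1 CPM in GFP-LO cells. The GFP-HI libraries surrounded the GFP-LO ones, and 3 of 6 mice were higher in GFP-HI. The mean was 79.4 ± 14.5 CPM in GFP-HI cells and 81.8 ± 4.11 CPM in GFP-LO cells (SD, n = 6 each), a log2 fold change of -0.06 ± 0.11 (SE). The SD over mice was wider in GFP-HI than in GFP-LO, a difference that was not tested.

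Wnt10a, a ligand that acts through β-catenin and whose loss in humans disturbs teeth and other ectodermal organs, was at 21.6, 33.0 and 58.8 CPM (lowest, median and highest) in GFP-HI cells and 35.7, 42.4 and 64.9 CPM in GFP-LO cells. B3M held the highest library of each fraction, and the fractions overlapped. Only B4M was higher in GFP-HI, with 49.3 CPM against 43.3 CPM in GFP-LO. The log2 fold change was -0.31 ± 0.15 (SE) with all mice and -0.19 ± 0.13 (SE) without B1M, whose GFP-HI library had 21.6 CPM.

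Wnt7b, a ligand of epithelia that is known mostly for β-catenin signalling, was at 2.33 CPM for B1M, 9.72 for B3M, 14.3 for B4M, 13.1 for B5M, 14.9 for B7F and 8.79 for B7M in GFP-HI. In GFP-LO it was at 11.6, 11.9, 18.4, 19.4, 16.8 and 15.7 CPM in the same mice. It was lower in GFP-HI in 6 of 6 mice, though the fractions overlapped. Together with Wnt5a and Ryk it makes 3 of 9 tested members with that pattern, which 2.62% of all tested genes had. No tested member was higher in GFP-HI in all 6 mice, as 3.3% of all tested genes were. The log2 fold change was -0.70 ± 0.27 (SE) and did not pass the test (edgeR adjusted p = 0.60). Much of it came from B1M, whose GFP-HI library of few detected genes had 19 Wnt7b counts. Without B1M it was -0.44 ± 0.18 (SE).

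Wnt3a, the ligand most used to switch on β-catenin signalling in culture, ran lower. It was at 0 CPM for B1M, 2.23 for B3M, 3.81 for B4M, 6.11 for B5M, 5.66 for B7F and 6.79 for B7M in GFP-HI, against 3.14, 9.11, 5.49, 5.67, 6.69 and 4.58 CPM in GFP-LO of the same mice. The count of 0 in B1M allows up to 0.368 CPM. B1M and B3M, whose GFP-HI libraries detected the fewest genes, were far lower in GFP-HI, and of the other 4 mice B5M and B7M were higher there and B4M and B7F lower. The log2 fold change was -0.83 ± 0.60 (SE) over all mice, -0.38 without B1M and -0.01 without B1M and B3M.

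The 2 least abundant ligands were near the limit of detection. Wnt7a, a relative of Wnt7b, had 0 to 24 counts in GFP-HI libraries and 6 to 19 in GFP-LO libraries. It averaged 1.02 ± 1.23 CPM in GFP-HI cells and 1.58 ± 0.572 CPM in GFP-LO cells (SD, n = 6 each), and its counts were 0 in GFP-HI of B1M and of B3M, which allow up to 0.368 and 0.394 CPM. Its log2 fold change was -1.36 ± 0.84 (SE) over all mice, -0.95 without B1M, -0.94 without B3M and -0.49 ± 0.53 (SE) without both. A stricter filter on low counts removed it from the test. Wnt10b, the close relative of Wnt10a, had 0 to 14 counts in GFP-HI and 0 to 11 in GFP-LO, or 0.833 ± 0.503 CPM in GFP-HI cells and 0.618 ± 0.535 CPM in GFP-LO cells (SD, n = 6 each). With no filter on low counts, its fitted log2 fold change was 0.56 ± 1.06 (SE). Wnt7a did not pass the test, Wnt10b was not in it, and both SEs are wide at these counts.

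Ryk is a receptor with a Wnt-binding domain and an inactive kinase domain. It had 94.6 CPM for B1M, 86.8 for B3M, 98.2 for B4M, 96.1 for B5M, 98.6 for B7F and 93.0 for B7M in GFP-HI. In GFP-LO it lay between 104 and 117 CPM, with a median of 106 CPM and its highest value in B4M. All GFP-HI libraries were below all GFP-LO libraries, as they were for 0.128% of all tested genes. No member had all GFP-HI libraries above all GFP-LO libraries, which 0.0683% of all tested genes had. The step was small: 94.5 ± 4.35 CPM in GFP-HI cells and 107 ± 4.79 CPM in GFP-LO cells (SD, n = 6 each), a log2 fold change of -0.18 ± 0.08 (SE). It did not pass the test (edgeR adjusted p = 0.66).

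Ror2, a receptor of Wnt5a in the mouse embryo, was at 17.1, 19.2 and 26.3 CPM (lowest, median and highest) in GFP-HI cells and 16.7, 20.4 and 28.5 CPM in GFP-LO cells. The ranges were nearly the same, and B1M alone of the 6 mice was clearly higher in GFP-HI, by 0.65 on the log2 scale. The log2 fold change was -0.04 ± 0.17 (SE). Ror1, its relative, was at 5.51, 16.2 and 26.9 CPM in GFP-HI cells and 10.4, 11.6 and 20.5 CPM in GFP-LO cells. Ror1 varied most between mice among the receptors: the difference of log2 CPM within a mouse was 1.35 in B1M and 0.77 in B3M but -1.34 in B4M. Its log2 fold change was 0.26 ± 0.29 (SE), and -0.13 without B1M and B3M. For the 8 tested members other than Wnt5a, the edgeR test called none, with 2 of the 8, Wnt7b and Ryk, at an unadjusted p under 0.05, against 7.24% of all tested genes. DESeq2 called none of the 6 for which it gave an adjusted p, and it gave none for Wnt3a and Wnt7a.

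**Figure D2:**
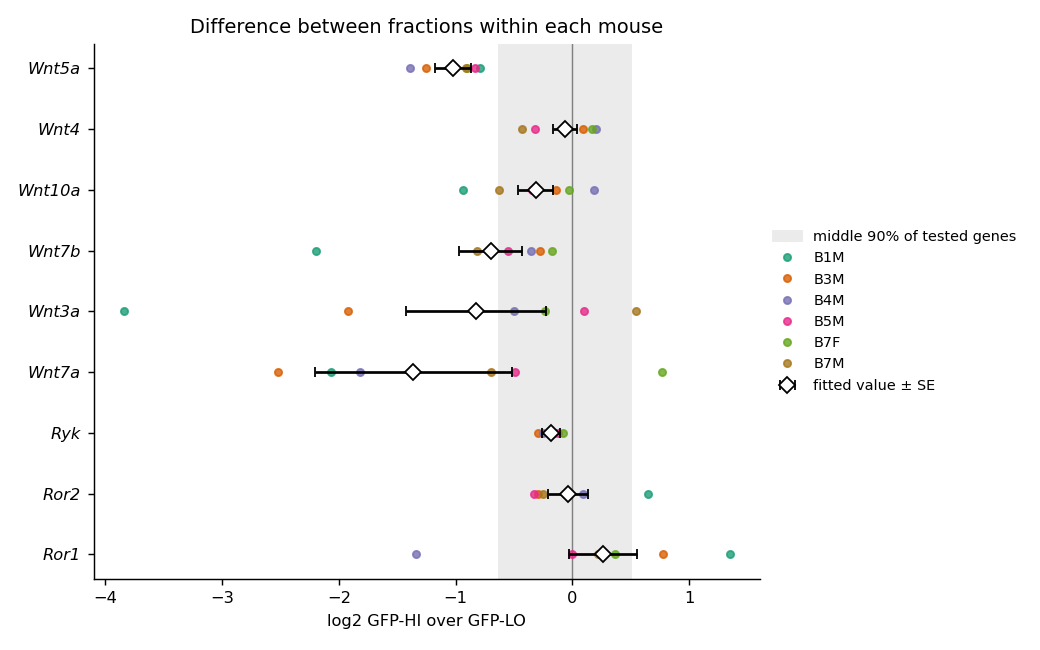
Difference of log2 CPM, GFP-HI minus GFP-LO, in each mouse (coloured points) and the fitted log2 fold change with its SE (diamonds) for each gene. A grey band covers the middle 90% of the fitted values of tested genes, from -0.63 to 0.50. The fitted value of Wnt5a, -1.02, lies left of the band. The band is of fits over all mice, so it is not a measure of the spread of single-mouse points. The 6 points of Wnt5a lie between -1.39 and -0.79, and the points of Ryk lie close together just left of 0.

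Levels were compared between genes per kilobase of exonic length, as CPM per kb over all 12 libraries. Ryk was the highest at 30.9 ± 2.44 CPM per kb (SD, n = 12 libraries of 6 mice), above 89.4% of tested genes. Wnt10a at 21.1 ± 6.26 and Wnt4 at 21.1 ± 2.69 CPM per kb followed, each above 83.7% of tested genes. A middle group held Ror2 at 5.22 ± 0.958, Wnt5a at 5.13 ± 2.28, Ror1 at 4.30 ± 1.89 and Wnt7b at 2.96 ± 1.06 CPM per kb. Wnt3a was at 1.80 ± 0.870, Wnt7a at 0.410 ± 0.302 and Wnt10b at 0.326 ± 0.228 CPM per kb. Of the 9 neighbouring pairs in this order, only Wnt4 was above its next gene, Ror2, in 12 of 12 libraries. Ryk was above Wnt10a in 10, and Wnt10a was above Wnt4 in 6, so the order within the top group is not fixed.

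By the mean of each fraction, Wnt5a took a different place in that order, which restates the difference known when the genes were picked. It averaged 3.37 ± 0.866 CPM per kb in GFP-HI, between Ror1 and Wnt7b, and 6.88 ± 1.82 CPM per kb in GFP-LO, above both Ror genes (SD, n = 6 each). Single libraries crossed these places. In GFP-HI of B4M, Wnt5a had 2.62 CPM per kb, against 1.55 for Ror1 and 3.23 for Wnt7b. In GFP-LO of B7F it had 4.78 CPM per kb, against 5.80 for Ror1. Ror2 was at 5.15 ± 0.906 CPM per kb in GFP-HI cells and 5.29 ± 1.09 CPM per kb in GFP-LO cells, and Ror1 at 4.85 ± 2.44 CPM per kb in GFP-HI cells and 3.74 ± 1.08 CPM per kb in GFP-LO cells.

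**Figure D3:**
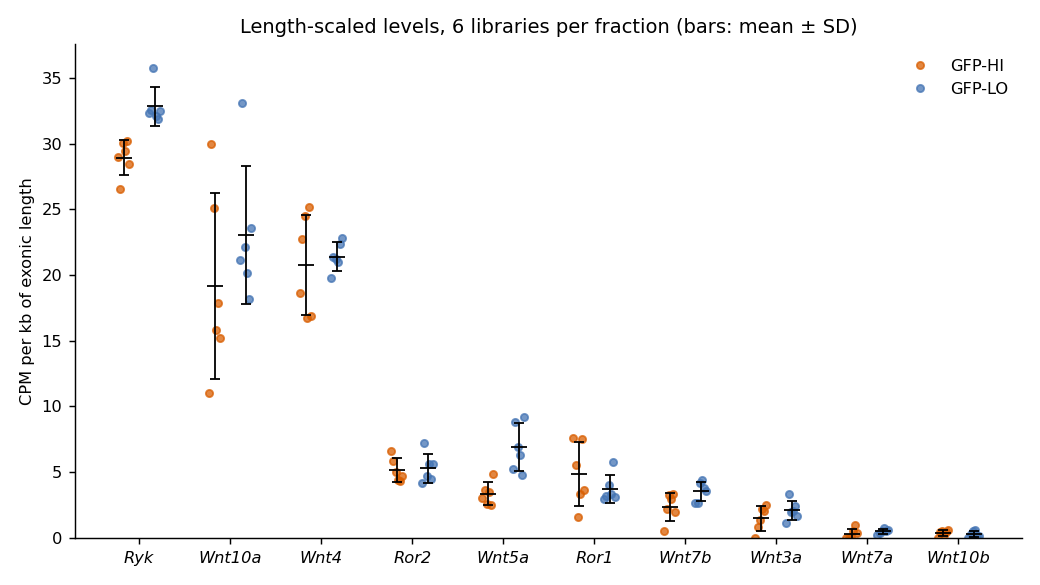
CPM per kb of exonic length for the 10 genes, ordered by their mean over 12 libraries, with the 6 GFP-HI libraries left of the 6 GFP-LO libraries and bars at mean ± SD. Ryk, Wnt10a and Wnt4 form a high group and Wnt7a and Wnt10b lie near 0, and Wnt5a averages 3.37 in GFP-HI and 6.88 in GFP-LO.

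Set against all 19 mouse Wnt genes, the ligands summed to 76.3 ± 20.3 CPM per kb in GFP-HI cells and 74.96 ± 8.94 CPM per kb in GFP-LO cells (SD, n = 6 each). Wnt4 and Wnt10a together held 54.2% ± 14.2 of that sum in GFP-HI and 59.7% ± 7.35 in GFP-LO. Wnt5a held 4.75% ± 1.73 in GFP-HI, from 2.35% to 6.67%, and 9.17% ± 1.99 in GFP-LO, from 5.96% to 11.8%. The share of Wnt3, a canonical ligand outside the chosen set, varied widely between mice, with 1.31% to 40.9% in GFP-HI and 0.558% to 17.1% in GFP-LO. In GFP-HI of B7F, Wnt3 had 44.0 CPM per kb, above Wnt4 at 25.1 and Wnt10a at 17.9. In GFP-HI of B7M it had 17.8 CPM per kb, above Wnt4 at 16.9 and Wnt10a at 15.2. Wnt2 had 0 counts in all 12 libraries.

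Wnt5a is also made by fibroblasts in many tissues, so its level was set beside 15 fibroblast markers. Their summed level was 339 to 571 CPM in GFP-HI and 435 to 688 CPM in GFP-LO, lower in GFP-HI in 6 of 6 mice. Most of the sum was Dcn, the matrix proteoglycan decorin, with 327 ± 83.9 CPM in GFP-HI cells and 456 ± 92.2 CPM in GFP-LO cells (SD, n = 6 each). Dcn fell by 0.49 on the log2 scale in GFP-HI (SE 0.07, edgeR adjusted p = 0.0031). Without Dcn the other 14 markers summed to 55.9 to 121 CPM in GFP-HI and 73.4 to 87.5 CPM in GFP-LO, higher in GFP-HI in 5 of 6 mice.

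Of the 15 markers, 7 were at or near 0, among them Lum and the growth factor receptor genes Pdgfra and Pdgfrb. Lum, Pdgfra, Pdgfrb, Col3a1, Dpt, Twist1 and Twist2 were at 0 to 1.69 CPM in GFP-HI libraries and 0 to 0.965 CPM in GFP-LO libraries. The collagen genes Col1a1 and Col1a2 averaged 2.88 and 2.60 CPM in GFP-HI cells and 0.878 and 0.852 CPM in GFP-LO cells. Col6a1, Col6a2 and Vim were also low, at means of 4.32, 6.04 and 3.07 CPM in GFP-HI cells and 4.85, 4.49 and 1.36 CPM in GFP-LO cells. Fbln1 and Thy1 were well expressed in every library, Fbln1 at 21.3 to 42.0 CPM in GFP-HI and 27.3 to 41.1 CPM in GFP-LO and Thy1 at 25.5 to 52.7 CPM in GFP-HI and 27.5 to 37.0 CPM in GFP-LO. Of the 8 fibroblast markers tested, Dcn was called lower and none higher. Marker sums of other cell types were 0 to 6.58 CPM in GFP-HI and 0 to 3.17 CPM in GFP-LO for endothelium, 0.737 to 21.7 CPM in GFP-HI and 0.377 to 32.2 CPM in GFP-LO for immune cells, and 3.41 to 14.0 CPM in GFP-HI and 10.3 to 15.4 CPM in GFP-LO for Schwann cells and nerve. Melanocyte markers summed to 10.3 to 18.4 CPM in GFP-HI and 7.56 to 13.2 CPM in GFP-LO, higher in GFP-HI in 5 of 6 mice. Merkel markers summed to 7.75 to 24.6 CPM in GFP-HI and 7.51 to 15.3 CPM in GFP-LO, higher in GFP-HI in 4 of 6 mice. Muscle markers summed to 2.58 to 14.9 CPM in GFP-HI and 4.27 to 7.89 CPM in GFP-LO, higher in GFP-HI in 3 of 6 mice. Suprabasal keratinocyte markers summed to 1551 to 4233 CPM in GFP-HI and 1632 to 3008 CPM in GFP-LO. Taste and gland markers summed to 11.6 to 94.1 CPM in GFP-HI and 6.07 to 9.39 CPM in GFP-LO, higher in GFP-HI in 6 of 6 mice, with the taste cell gene Gnat3 at 0 in all libraries but one. Different genes made up that sum in different mice. In GFP-HI, the keratin gene Krt8 was 16.5 of 20.4 CPM in B1M and the keratin gene Krt19 11.3 of 11.6 CPM in B3M. The mucin gene Muc5b was 72.3 of 94.1 CPM in B7F. The sum is therefore not a measure of taste or gland cells in each mouse. The part of other cells in the Wnt5a difference was not tested.

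The genes whose log2 CPM followed Wnt5a most closely over the 12 libraries, of 9562 with a mean of at least 5 CPM, were Ccnd1 (Pearson r = 0.883), Lrrc8d (0.851), Neu1 (0.851), Igfbp5 (0.849) and Spsb4 (0.848). The 12 libraries come from 6 mice in pairs and contain the difference between fractions itself, so these are descriptions. Igfbp5, which encodes a binding protein of insulin-like growth factors, was itself called lower, with 22.01 ± 11.4 CPM in GFP-HI cells and 42.6 ± 11.3 CPM in GFP-LO cells (SD, n = 6 each; edgeR adjusted p = 0.020). Ccnd1, the gene of cyclin D1, had 55.1 ± 10.1 CPM in GFP-HI cells and 74.2 ± 15.2 CPM in GFP-LO cells (SD, n = 6 each) and was not called. Lrrc8d encodes a subunit of a volume-regulated anion channel and Neu1 a lysosomal sialidase. The likeness was not of one kind: over the 6 within-mouse differences, r with Wnt5a was 0.76 for Lrrc8d and 0.78 for Spsb4 but -0.43 for Ccnd1, -0.48 for Igfbp5 and -0.23 for Neu1. Among the other members, Ryk followed Wnt5a most closely, with r = 0.645, rank 104 of the 9562 genes.

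**Figure D4:**
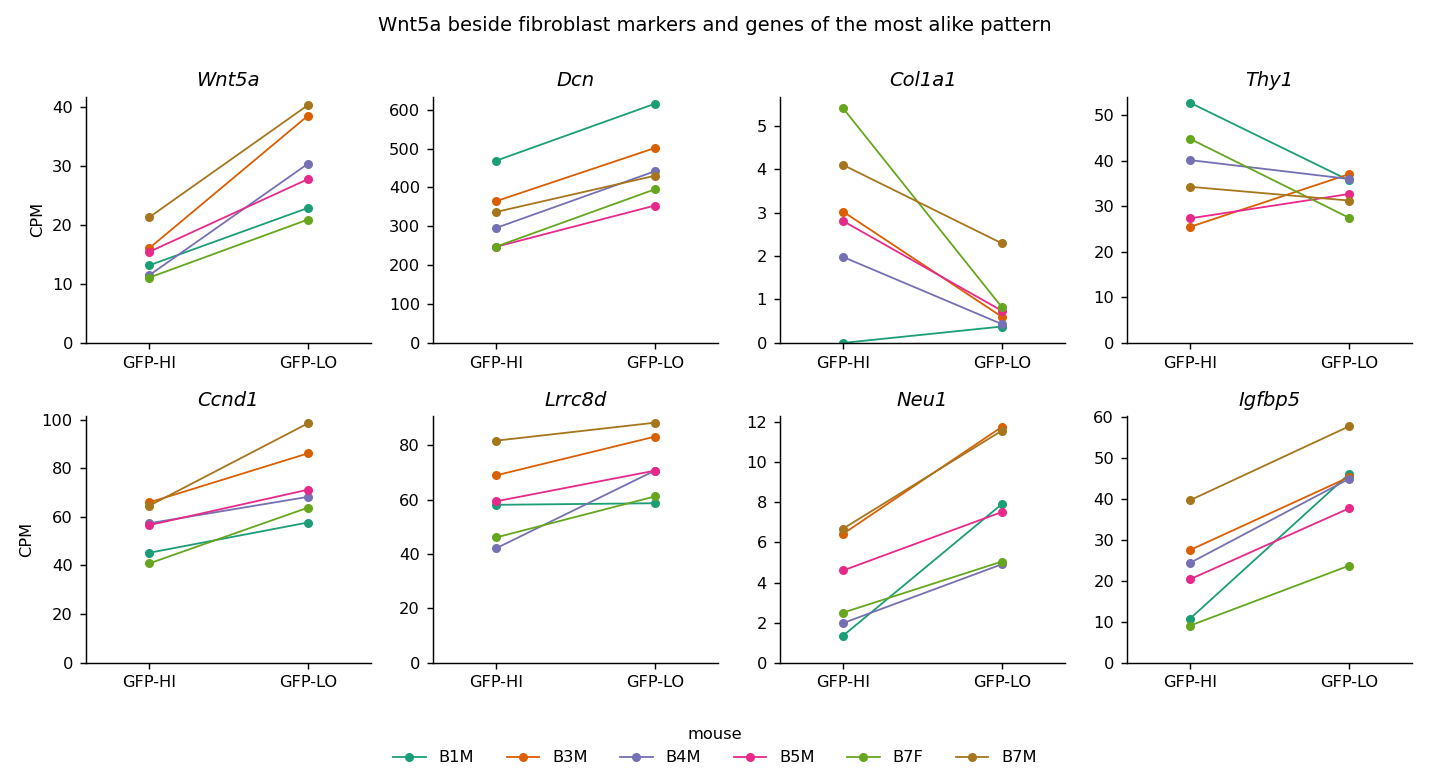
CPM (vertical axis, from 0, scaled per gene) of Wnt5a, of fibroblast markers and of the genes most alike to it, in the GFP-HI and GFP-LO library of each mouse, with lines joining the libraries of a mouse. Dcn is lower in GFP-HI in 6 of 6 mice, as Wnt5a is, while Col1a1 is at or below 5.40 CPM and higher in GFP-HI in 5 of 6.

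The rest of the Wnt pathway was covered by 8 lists with 127 symbols, of which 123 were in the table and 90 were tested. The edgeR test called 0 of these 90, against 0.529% of all tested genes in either direction. At an unadjusted p under 0.05 there were 14, of which 5 were higher and 9 lower in GFP-HI. Of all tested genes 7.24% had such a p, 4.3% with a higher and 2.94% with a lower value in GFP-HI. DESeq2 called Fzd3 higher and Lgr6, Tnfrsf19 and Ccnd1 lower. For the signs given by list below, 5501 of all tested genes had a positive and 6218 a negative log2 fold change. The lists were chosen with earlier results of these data known, so nothing is read from these signs.

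Of the 12 other ligands 5 were tested, 3 with a positive and 2 with a negative log2 fold change (median 0.11). Wnt3 had 5.53 CPM for B1M, 2.89 for B3M, 39.5 for B4M, 45.4 for B5M, 137 for B7F and 55.4 for B7M in GFP-HI, against 1.01, 9.88, 28.9, 15.8, 42.8 and 15.3 CPM in GFP-LO of the same mice. It was higher in GFP-HI in 5 of 6 mice and lower in B3M, and its SD over GFP-HI libraries, 48.8 CPM, was wider than that of any member. Its log2 fold change was 1.07 ± 0.41 (SE) with an edgeR adjusted p of 0.61, and it was called higher without B3M, without both B1M and B3M, and with no filter on low counts. Wnt5b, the closest relative of Wnt5a, averaged 6.48 CPM in GFP-HI cells and 3.34 CPM in GFP-LO cells, with a positive log2 fold change of 0.96 ± 0.48 (SE, edgeR adjusted p = 0.71). Wnt6 averaged 2.75 CPM in GFP-HI cells and 5.08 CPM in GFP-LO cells (edgeR adjusted p = 0.69).

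Of the genes that release or inactivate ligands, 3 were tested, 1 with a positive and 2 with a negative fold change (median log2 -0.12). Wls, the carrier of lipid-bearing Wnts, averaged 110 CPM in GFP-HI cells and 118 CPM in GFP-LO cells. Porcn, which attaches the lipid, averaged 1.93 CPM in GFP-HI cells and 1.85 CPM in GFP-LO cells, with a fitted log2 fold change of -0.21 that has the opposite sign to these means, and Trabd2b, a protease that inactivates Wnts, 9.24 CPM in GFP-HI cells and 6.27 CPM in GFP-LO cells. None passed the test.

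Among Frizzled and LRP receptors 11 of 12 were tested, 7 with a positive and 4 with a negative fold change (median log2 0.04). Fzd3, a receptor of the planar polarity branch, had 60.3 CPM for B1M, 41.1 for B3M, 29.8 for B4M, 31.6 for B5M, 53.1 for B7F and 31.96 for B7M in GFP-HI. In GFP-LO it had 14.4, 25.9, 21.0, 22.9, 40.4 and 17.9 CPM in the same mice. It was higher in GFP-HI in 6 of 6 mice, with overlapping fractions and a log2 fold change of 0.81 ± 0.20 (SE), and did not pass the edgeR test (adjusted p = 0.145). It was called higher when B1M and B3M were left out or low counts were not filtered. Fzd1 averaged 24.8 CPM in GFP-HI cells and 31.8 CPM in GFP-LO cells (edgeR adjusted p = 0.53), and Fzd10 9.75 CPM in GFP-HI cells and 14.9 CPM in GFP-LO cells (edgeR adjusted p = 0.66).

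The list of planar polarity and other non-canonical transduction genes, surface co-receptors among them, had 36 of 40 tested. Of these, 20 had a positive and 16 a negative fold change (median log2 0.01). Prickle2, a cytoplasmic planar polarity protein, averaged 93.6 CPM in GFP-HI cells and 72.7 CPM in GFP-LO cells and was higher in GFP-HI in 6 of 6 mice (log2 0.36 ± 0.12 SE, edgeR adjusted p = 0.45). Mapk9, a JNK kinase, was higher in GFP-HI in 6 of 6 mice as well, with a log2 fold change of 0.31 ± 0.16 (SE, edgeR adjusted p = 0.74). Ptk7, a co-receptor of this branch, averaged 124 CPM in both fractions.

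The 21 genes of β-catenin transduction were all tested, 4 with a positive and 17 with a negative fold change (median log2 -0.16). Tle3, a co-repressor of TCF factors, averaged 56.0 CPM in GFP-HI cells and 72.6 CPM in GFP-LO cells (edgeR adjusted p = 0.37). Csnk1a1, a kinase that starts the breakdown of β-catenin, averaged 337 CPM in GFP-HI cells and 380 CPM in GFP-LO cells (edgeR adjusted p = 0.62). Csnk1e, a kinase that acts on Dishevelled, averaged 16.0 CPM in GFP-HI cells and 19.8 CPM in GFP-LO cells (edgeR adjusted p = 0.71).

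Of the 16 β-catenin targets and feedback genes 10 were tested, and all 10 had a negative fold change (median log2 -0.17), none past the threshold. The lowest adjusted p-values of the pathway were here. Tnfrsf19, a receptor that marks some epithelial stem cells, averaged 44.4 CPM in GFP-HI cells and 67.1 CPM in GFP-LO cells (log2 -0.61 ± 0.13 SE, edgeR adjusted p = 0.063). Lgr6, an R-spondin receptor, averaged 12.1 CPM in GFP-HI cells and 27.8 CPM in GFP-LO cells, with no overlap between the fractions (log2 -1.25 ± 0.27 SE, edgeR adjusted p = 0.071). Ccnd1, described above for its likeness to Wnt5a, had a log2 fold change of -0.43 ± 0.10 (SE, edgeR adjusted p = 0.094). Axin2, the feedback gene most used to read the pathway, averaged 13.2 CPM in GFP-HI cells and 16.7 CPM in GFP-LO cells (log2 -0.40, edgeR adjusted p = 0.79). Tnfrsf19, Lgr6 and Ccnd1 were called lower when B1M and B3M were left out or low counts were not filtered, and Lgr6 and Ccnd1 when B1M alone was.

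Of 15 genes in the list of secreted inhibitors 4 were tested, 2 with a positive and 2 with a negative fold change. The list also held Kremen1, which was among those tested, and Kremen2, which encode receptors at the cell surface and not secreted proteins. Sfrp1, which binds Wnts outside the cell, averaged 58.2 CPM in GFP-HI cells and 39.1 CPM in GFP-LO cells (log2 0.54 ± 0.16 SE, edgeR adjusted p = 0.29), and was called higher with no filter on low counts. Dkk3, a Dickkopf relative, averaged 38.1 CPM in GFP-HI cells and 25.2 CPM in GFP-LO cells (edgeR adjusted p = 0.40), and Sostdc1 33.5 CPM in GFP-HI cells and 37.1 CPM in GFP-LO cells. None of the 4 R-spondins, ligands of the Lgr receptors, passed the filter on low counts.

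**Figure D5:**
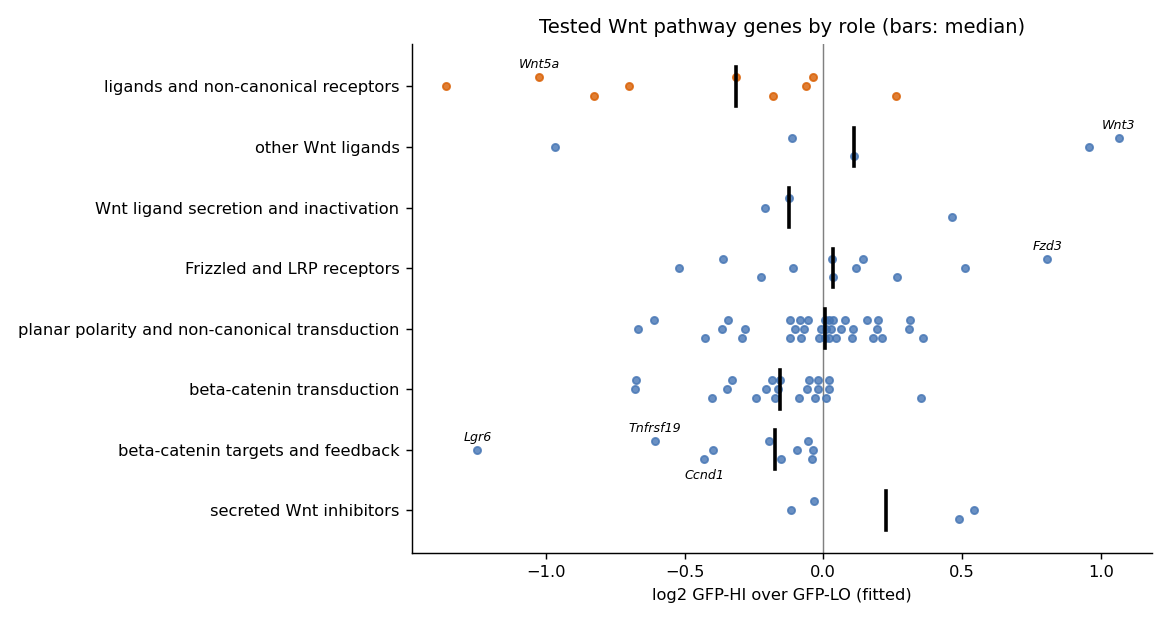
Fitted log2 fold change, GFP-HI over GFP-LO, of each tested Wnt pathway gene (points), arranged by role, with the median of each list marked. Wnt5a, at -1.02, is the one gene called, and Fzd3 (0.81) and Wnt3 (1.07) lie to the right of 0 without passing the test. All 10 tested β-catenin targets and feedback genes lie left of 0, as do 6218 of all 11719 tested genes.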

How the data were processed

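The deposited file holds raw read counts per gene, whole numbers that the authors did not normalise, with 23420 genes and 12 libraries. Reads were handled with bcl2fastq 2.20.0, featureCounts and R 3.4.1 on mm10 (GRCm38), per the submitters' processing notes, which also list FastQC and DESeq2. An aligner, annotation release or strand setting is not given in the sources used here. RNA was total RNA made into libraries with a low-input kit, per the labels' protocols, and Rn45s held 31.5% to 59.8% of counts.

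The analysis used edgeR 4.0.16 under R 4.3.3: filtering by group (minimum count 10, minimum total 15), TMM scaling, a robust two-sided quasi-likelihood test with mouse as a block, and Benjamini-Hochberg adjustment over 11719 genes at 0.05. The SE is the log2 fold change divided by the root of its F statistic. CPM are TMM-scaled, and log2 CPM use a prior count of 2. A count of 0 allows up to 3 counts, 0.258 to 0.433 CPM by library, for counting error only. DESeq2 1.42.0, other filters and scalings, and left-out mice were alternatives. The fit was checked on simulated counts. Of 100 genes simulated with a log2 change of 1 it recovered 42, and of 100 with a log2 change of 2 it recovered 100, with 10 false calls. The changed genes all had a mean above 5 CPM, and every gene was given the same dispersion. A gene that was not called may therefore still differ by a log2 change of 1. Genes at lower levels, such as Wnt7a, were not among those changed, so the check does not show what size of change could be missed in them.

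The pairing comes from the animal codes in the titles and the series text, which calls the samples matched. Deviations from the group means correlated at 0.23 to 0.49 within a mouse and at most 0.26 with another mouse. The labels name no batch. The members and lists were chosen with earlier results of these data known. Named genes are all members, up to 3 tested genes of each pathway list with the smallest p, defining markers, and the 5 genes most correlated with Wnt5a. Ptk7, Wnt2 and Axin2 are outside that rule and were chosen after their values were seen. Kremen1 and Kremen2 are named only to describe their list. Sequences are from GENCODE vM21 on GRCm38. The symbols Tiki1, Adgra2, Prickle4 and Troy were not matched in the table. Troy is another name of Tnfrsf19, which was listed as well and was matched.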

Additional observations from a re-analysis of the deposited data

Results flagged for a closer look

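Each gene's values were screened for 1 mouse or library standing apart from the other 5 of its group by Dixon's ratio, in 30 sets of 6 values, of which chance flags about 1 in 20. It marked 3. The Wnt7b difference of log2 CPM, GFP-HI minus GFP-LO, was -2.20 in B1M, against -0.82 to -0.17 in the other 5 mice. Wnt10a had 64.9 CPM in the GFP-LO library of B3M, against 35.7 to 46.2 CPM in the other GFP-LO libraries. Ryk had 117 CPM in the GFP-LO library of B4M, against 104 to 106 CPM in the other GFP-LO libraries. The GFP-HI library of B1M detected 12312 genes, the fewest of all, and its part in the Wnt7b value was not tested.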

How the results depend on the processing

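The log2 fold change of Wnt5a was negative under all 14 alternatives (-1.06 to -0.95, also the range when single mice were left out) and called in 12, the exceptions being no block and B4M left out, with adjusted p from 5.8e-06 in DESeq2 to 0.567 without the block. Without mouse as a paired block it was -1.03, and the test then called 0 genes higher and 0 lower, against 55 and 7 with it. The counts higher and lower were 120 and 23 in DESeq2, 127 and 45 without a filter on low counts, 117 and 34 without B1M and B3M, and 6 and 3 after 68 histone cluster genes were removed. Leaving out single mice gave 29 to 81 higher (29 without B3M, 30 without B4M) and 2 to 14 lower (14 without B1M, 2 without B4M, 3 without B5M and 4 without either B3M or B7M). Of the pathway lists, 1 gene was called higher and 3 lower in DESeq2, 3 and 3 without a filter, 2 and 3 without B1M and B3M, and 0 to 1 higher and 0 to 2 lower without single mice, Lgr6 and Ccnd1 without B1M and Wnt3 without B3M. The sign turned for Ror1 without B1M and B3M (-0.13), for Ror2 without B3M, B5M or B7M (-0.17 to 0.024 over single mice left out) and for Wnt4 without B7M (-0.12 to 0.016). In CPM without division by length, 3 neighbouring pairs of members kept their order in all libraries, against 1 per kb. The cause of these moves was not tested. Low counts limit Wnt3a, Wnt7a and Wnt10b, and without separate labels for batch or sort day, such effects could not be examined.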

Other observations

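A gland product outside the Wnt genes stood apart in the GFP-HI libraries of B7F and B7M, in which Wnt3 was highest. It did not in the libraries with the next highest Wnt3. Muc5b, the gene of a mucin made by mucous glands, had 72.3 CPM in B7F and 43.3 CPM in B7M in GFP-HI and at most 0.989 CPM in the other 4 GFP-HI libraries, against at most 0.578 CPM in all 6 GFP-LO libraries. Wnt3 had 137 CPM in B7F and 55.4 CPM in B7M in GFP-HI. It was next highest at 45.4 CPM in GFP-HI of B5M, 42.8 CPM in GFP-LO of B7F and 39.5 CPM in GFP-HI of B4M. In these libraries Muc5b was at 0.801, 0.352 and 0.989 CPM. Of the 7 taste and gland markers, the taste cell genes Trpm5 and Gnat3 were at 0 to 0.658 CPM in GFP-HI and 0 to 0.687 CPM in GFP-LO. The markers Aqp5 and Bpifa2 had 2.63 and 0.263 CPM in GFP-HI of B7F, and both had 0 CPM in GFP-HI of B7M. This pairing was noticed in the data, and no relation between these genes was tested.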
